A study of Rattus norvegicus with 6 samples.

Results

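The genes described here encode the proteasome and the proteins that build or regulate it. Members were the genes whose name in the deposited transcript assembly begins with Psma, Psmb, Psmc, Psmd, Psme, Psmf or Psmg, and the rule used no measured value. It found 52 gene models (1 gene name at 1 locus) of 24579, under 50 names, with 113 transcripts of 60887. Of these transcripts, 55 matched a reference transcript and 58 were splice combinations that the authors' assembly added. Expression was high enough to test 49 members among 15983 genes. Psme3 appears at 2 loci, and Psmb6 appears as Psmb6 on chromosome 10 and as PSMB6 on chromosome 2. Psmc3ip fits the naming rule but encodes a recombination factor and no proteasome subunit.

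Beta cells, the insulin producers of the pancreas, were sorted by flow cytometry from rat and grown in culture as 3 batches. Cells of each batch received 30 nM siRNA for 16 h, either against Nova1 (knockdown) or a commercial non-targeting siRNA (control), and their poly(A) RNA was sequenced after 48 h of recovery. That gave 3 Nova1 knockdown and 3 control libraries. Nova1 is an RNA-binding protein best known as a splicing regulator of neurons. The knockdown was transient and partial. Nova1 RNA measured 7.76, 10.2 and 9.43 CPM in knockdown libraries of batches 1, 2 and 3, against 20.6, 21.5 and 17.4 CPM in control libraries (log2 fold change -1.12, SE 0.11, limma adjusted p = 0.0378). CPM are estimated read counts scaled to library size.

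Assigned reads numbered 95394043 to 146453308 in knockdown libraries and 122637234 to 292432076 in control libraries. Beta cell markers dominated, with Ins1 at 258800 RPKM (read density scaled to transcript length and library size) on average. G6pc2 was near 0 at 0.0184 RPKM. Among 14 beta cell markers tested, 9 had a log2 fold change below 0, with a median of -0.05, and 0 had a limma adjusted p below 0.05. Ins1 and Ins2 together took 17.3% ± 6.47 of reads in knockdown libraries and 18.3% ± 4.48 in control libraries (SD, n = 3 each), with the lowest shares in batch 2, at 9.84% and 13.2%. Of 12 acinar cell markers tested, 11 had a log2 fold change below 0, with a median of -0.39, and 1 was called lower (limma adjusted p = 0.0463). Their summed level ranged from 128 to 372 CPM in knockdown and from 178 to 503 CPM in control libraries. The 12 immune cell markers tested had a median of 0.98 at low levels (median 0.27 RPKM). With 0.5 added to each CPM, their median log2 difference was 0.18, 0.41 and 0.15 in batches 1, 2 and 3. Among them 1 was called higher and 1 lower at a limma adjusted p below 0.05. They summed to 17.3 to 30.2 CPM in knockdown and 18.3 to 21.7 CPM in control libraries, with Cd3e at 0 in all 6. Of 14 stellate cell and fibroblast markers, 11 were above 0 with a median of 0.44, and Col3a1 and Col5a1 rose (limma adjusted p = 0.042 and 0.036). They summed to 577, 976 and 496 CPM in knockdown and 624, 947 and 457 CPM in control libraries of batches 1, 2 and 3. Of 7 alpha, delta and PP cell markers, 6 were above 0 with a median of 0.17, and they summed to 7691, 14642 and 10795 CPM in knockdown and 5738, 13954 and 8688 CPM in control libraries. Both lists were highest in batch 2. Of 5 duct cell markers tested, 4 were above 0, with a median of 0.31, summing to 195 to 324 CPM in knockdown and 180 to 254 CPM in control libraries. Their median log2 difference, with 0.5 added to each CPM, was 0.12, -0.02 and -0.08 in batches 1, 2 and 3. Endothelial markers summed to at most 4.41 CPM in knockdown and 4.66 CPM in control libraries. The 7 neuron and Schwann cell markers tested had a median of 0.02 and a range from -0.96 to 0.33. Of these, 1 was called higher (limma adjusted p = 0.0463). Over all genes, 1.71% had a limma adjusted p below 0.05. The part of these cells in the results on the proteasome was not tested. Nothing in the labels ties batches to animals, and p-values here rest on the spread between 3 batches.

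The proteasome is the main protease of the cytosol and nucleus and degrades proteins tagged with ubiquitin. Its 20S core is a barrel of outer alpha rings and inner beta rings, in which 3 beta subunits, Psmb5, Psmb6 and Psmb7, hold the protease sites. The 19S cap, with a ring of ATPases and a set of non-ATPase subunits, binds ubiquitin chains, unfolds the substrate and feeds it into the core. Interferon induces replacement catalytic subunits and the PA28 activator. Beta cells rely on this system to clear misfolded proinsulin exported from the endoplasmic reticulum.

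At the level of whole genes, no proteasome member passed the test of Nova1 knockdown against control (limma with batch as a block, Benjamini-Hochberg adjusted over all genes, threshold 0.05), where 1.71% of all genes did, 1.2% lower and 0.513% higher in the knockdown. At an unadjusted p below 0.05 stood 8 of the 49, all with a lower level in knockdown. These were Psmb6, the single-exon model PSMB6, Psma5, PSME2, Psmb4, Psmb5, Psmd10 and Psmd13. With loci of the same name summed, 7 of 48 stood there. Over all genes, 23.9% stood at that unadjusted threshold in either direction and 11.5% were lower. The log2 fold change was below 0 in 44 of 49 members, against 49.2% of all genes. The members' median was -0.09, with a range from -0.48 to 0.09, and the median of all genes was 0.00. In bulk RNA, fewer cells of a type and less RNA per cell cannot be told apart.

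By batch, the members' median log2 difference was -0.01, -0.18 and -0.09 in batches 1, 2 and 3, with 31, 42 and 43 of 49 members below 0. The median thus lay close to 1 SD of the batch medians (0.0863) from 0. In all 3 batches 24 members were lower in the knockdown, where 24.5% of all genes were. Knockdown libraries lay entirely below control libraries for 3 members, Psma5, PSMB6 and Psmd10, against 4.1% of all genes, and entirely above them for 0 members, against 3.96% of all genes. As a share of all assigned reads, the members took 0.267%, 0.256% and 0.262% in knockdown and 0.265%, 0.264% and 0.270% in control libraries of batches 1, 2 and 3. These shares overlapped between the groups. With scaling to library totals alone, 34 of 49 members were below 0, since that scaling moved the median of all genes to 0.06, and 45 of 49 were below that median.

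**Figure D1:**
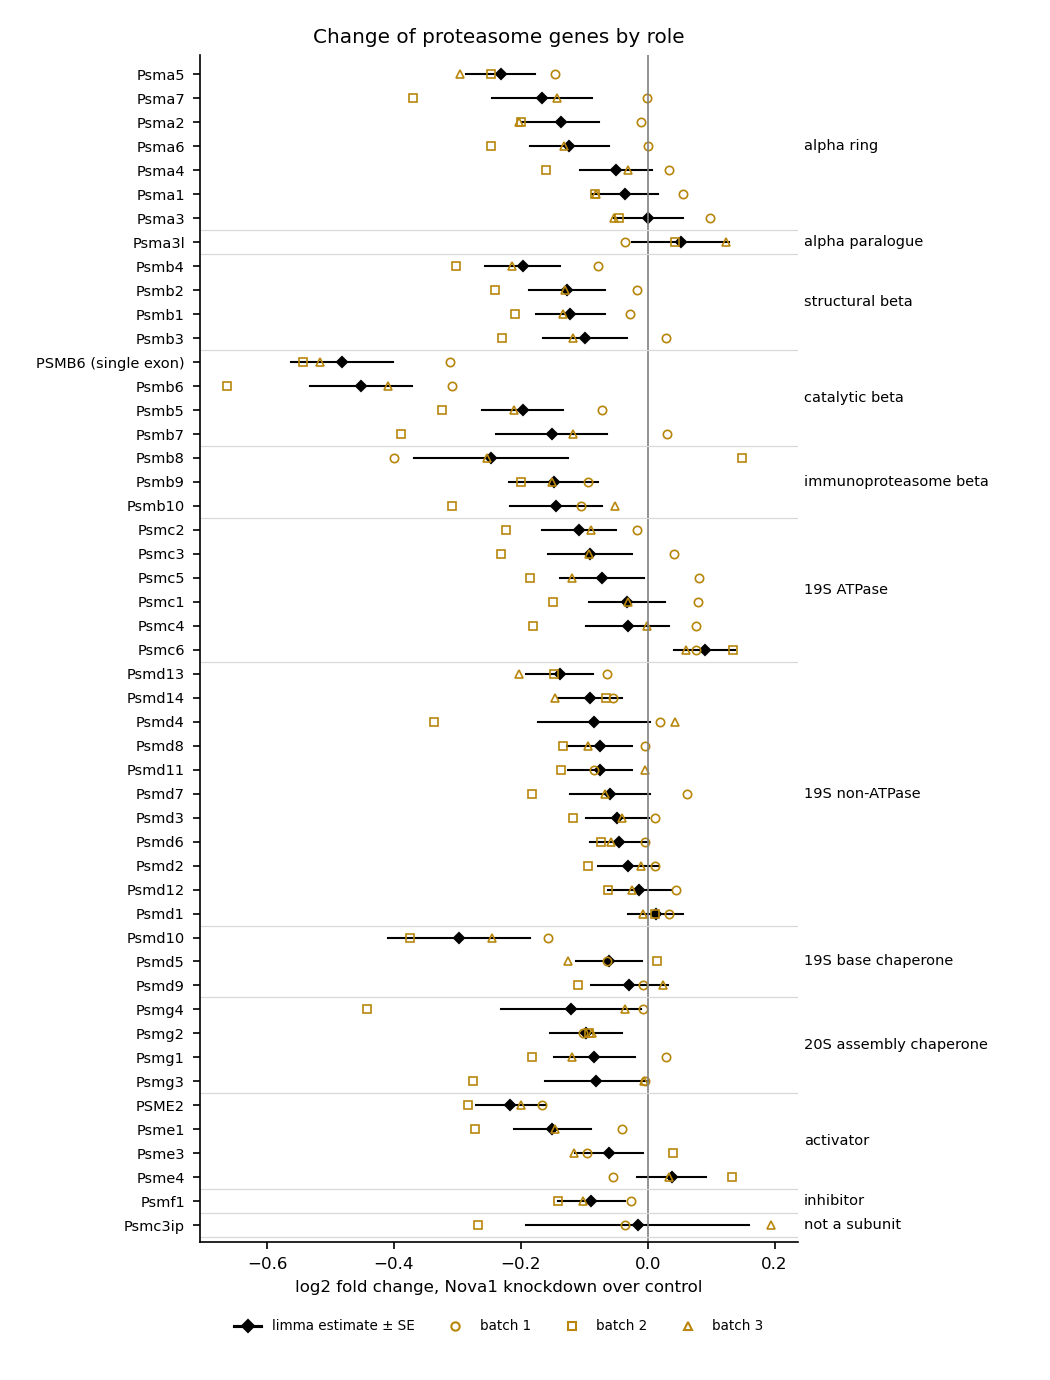
Log2 fold change of each tested proteasome gene, Nova1 knockdown over control (x axis), by role. Black diamonds with bars are the limma estimate ± SE over 3 batches and open symbols are single batches. PSMB6 and Psmb6 lie farthest below 0, at -0.48 and -0.45, and Psmc6 farthest above, at 0.09.

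Levels set the members well above most genes. Their median was 32.7 RPKM over the 6 libraries, against 4.98 RPKM for all genes tested. Psmb4, a structural beta subunit, had the highest level, with 133, 84.8 and 128 RPKM in knockdown and 140, 99.2 and 142 RPKM in control libraries. Psmb1, a structural beta subunit, followed with 95.3, 68.5 and 99.1 RPKM in knockdown and 96.4, 74.9 and 104 RPKM in control libraries. Psma1 of the alpha ring had 86.9, 88.0 and 80.4 RPKM in knockdown and 83.0, 88.3 and 81.6 RPKM in control libraries. Both batch 2 libraries were low for Psmb4 and Psmb1 and not for Psma1, whose groups overlapped.

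At the low end, Psmc3ip averaged 1.21 ± 0.144 RPKM in knockdown and 1.21 ± 0.143 RPKM in control libraries. Psmb8, the inducible counterpart of Psmb5, averaged 4.20 ± 1.19 and 4.75 ± 1.86 RPKM in knockdown and control libraries. Psmd10, a chaperone of cap assembly also known as gankyrin, averaged 4.25 ± 0.437 RPKM in knockdown and 5.22 ± 0.239 RPKM in control libraries. The gene model named Psmd10 lies on chromosome 3 in these files, while RefSeq places Psmd10 on chromosome X in the assembly GRCr8, and whether the model is that gene was not tested. The testis-specific alpha subunit gene Psma8, the thymus-specific beta subunit gene Psmb11 and a Psme3 locus on chromosome 11 were near 0, at 0.0191, 0.0133 and 0.0138 RPKM in knockdown and 0.00649, 0.0272 and 0.00762 RPKM in control libraries, and were not tested.

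**Figure D2:**
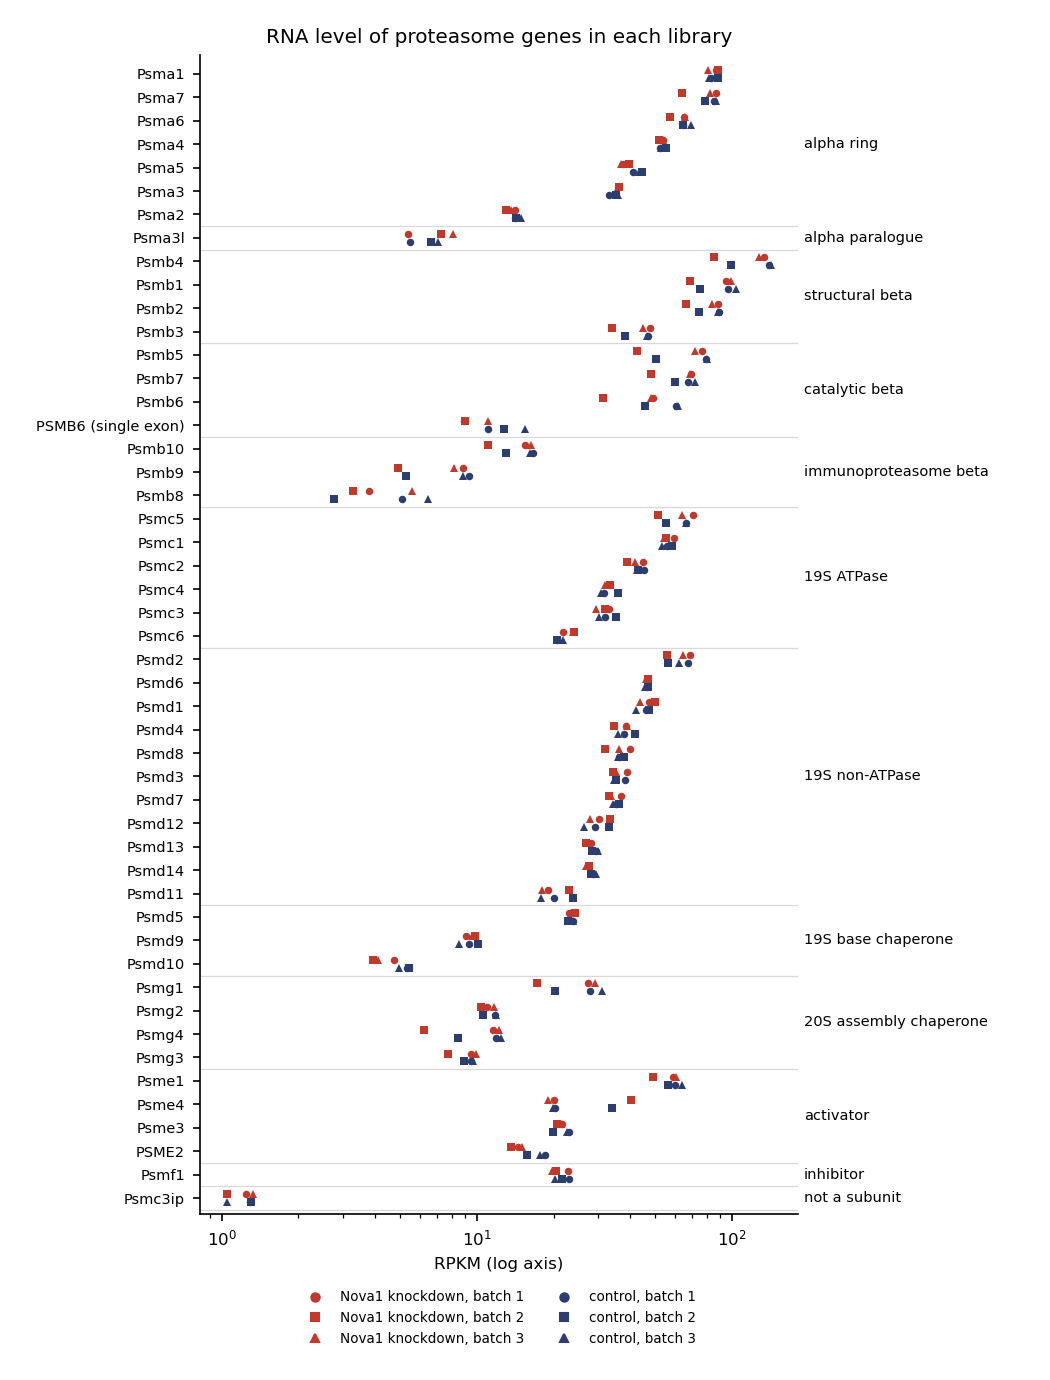
RPKM of each tested member (x axis, log scale) in every library, by role. Red marks are Nova1 knockdown, blue marks control, and the shape gives the batch. Subunits of the core and cap sit mostly between 20 and 121 RPKM, and the squares of batch 2 lie to the left of the other batches for most beta subunits.

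Although the subunits of a complex assemble in equal numbers, their RNA levels did not match. Over the 14 core subunit genes (without the single-exon PSMB6) the level per length spanned 8.65-fold, from Psma2 at 14.0 RPKM to Psmb4 at 121 RPKM. The width of this span rests on Psma2 alone, whose model is long, at 3480 nt against a core median of 975 nt. The next lowest core gene was Psma3 at 35.2 RPKM. The 17 cap subunits spanned 3.07-fold, from Psmd11 at 20.3 RPKM to Psmd2 at 62.3 RPKM. The ratio of mean core to mean cap RPKM was 1.67, 1.39 and 1.73 in knockdown libraries of batches 1, 2 and 3, against 1.74, 1.51 and 1.86 in control libraries. Within every batch the ratio was lower in the knockdown, by less than the spread between batches, and the groups overlapped (1.60 ± 0.177 and 1.70 ± 0.178, SD, n = 3 each).

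Among the 7 alpha ring genes, whose products gate the entrance of the barrel, 6 had a log2 fold change below 0, with a median of -0.12. Psma5 had 38.8, 36.1 and 38.3 CPM in knockdown libraries, against 43.0, 43.0 and 47.1 CPM in control libraries. Every knockdown library was below every control library, and the log2 fold change was -0.23 (SE 0.05, limma adjusted p = 0.0982). The next lowest, Psma7, had a log2 fold change of -0.17 (SE 0.08, limma adjusted p = 0.27), with its largest difference in batch 2. Psma3 stood at 0.00 (SE 0.05) and Psma1 at -0.04 (SE 0.05). Psma3l, a single-exon model named after Psma3, had 5.08, 6.03 and 7.63 CPM in knockdown and 5.22, 5.83 and 6.97 CPM in control libraries (log2 fold change 0.05, SE 0.08, limma adjusted p = 0.707).

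All 7 genes of the constitutive beta ring had a log2 fold change below 0, with a median of -0.15. The structural subunits Psmb1, Psmb2, Psmb3 and Psmb4 stood between -0.20 and -0.10. Psmb4 had 135, 75.6 and 130 CPM in knockdown libraries, against 143, 93.3 and 150 CPM in control libraries (log2 fold change -0.20, SE 0.06, limma adjusted p = 0.138). Psmb1 had 106, 66.9 and 110 CPM in knockdown libraries, against 108, 77.4 and 121 CPM in control libraries (log2 fold change -0.12, SE 0.05, limma adjusted p = 0.246). In both genes the 2 libraries of batch 2 were the lowest, and within each batch the knockdown was below its control.

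Psmb6, which carries the caspase-like protease site, had the largest difference among spliced members. It measured 37.2, 20.8 and 36.6 CPM in knockdown libraries, against 46.2, 33.2 and 48.7 CPM in control libraries. The knockdown was lower in each batch, by 0.31, 0.66 and 0.41 on the log2 scale, though the batch 2 control lay below the other knockdown libraries. The log2 fold change was -0.45 (SE 0.08, limma adjusted p = 0.0631), which did not pass the threshold.

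PSMB6 on chromosome 2 is a model of a single exon of 717 nt. That is also the length of the reference transcript of Psmb6 on chromosome 10, which has 6 exons, so the estimates may divide reads of 1 gene between the loci. PSMB6 had 6.72, 5.99 and 8.38 CPM in knockdown libraries, against 8.46, 8.97 and 12.2 CPM in control libraries, and its groups did not overlap (log2 fold change -0.48, SE 0.08, limma adjusted p = 0.0582). Its RPKM was 23.3% ± 5.33 of that of Psmb6 in knockdown libraries and 23.8% ± 4.93 in control libraries (SD, n = 3 each). With the loci summed, the log2 fold change was -0.46 (limma adjusted p = 0.0558). Whether PSMB6 is a copy of Psmb6 was not tested. A length correction removed, in each library, the trend on transcript length of the log2 deviation from a gene's mean over all libraries. With this length trend removed, both loci passed, Psmb6 at -0.36 (limma adjusted p = 0.0356) and PSMB6 at -0.39 (limma adjusted p = 0.0396), where 2.99% of all genes were called lower.

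Psmb5, the chymotrypsin-like subunit and main target of bortezomib, had 68.3, 33.4 and 64.5 CPM in knockdown and 71.8, 41.9 and 74.7 CPM in control libraries. Its log2 fold change was -0.20 (SE 0.06, limma adjusted p = 0.156), and the groups overlapped because both batch 2 libraries were low. Psmb7, the trypsin-like subunit, had 70.1, 43.1 and 69.8 CPM in knockdown and 68.6, 56.6 and 75.8 CPM in control libraries. Batch 1 differed in sign, and the log2 fold change was -0.15 (SE 0.09, limma adjusted p = 0.34).

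**Figure D3:**
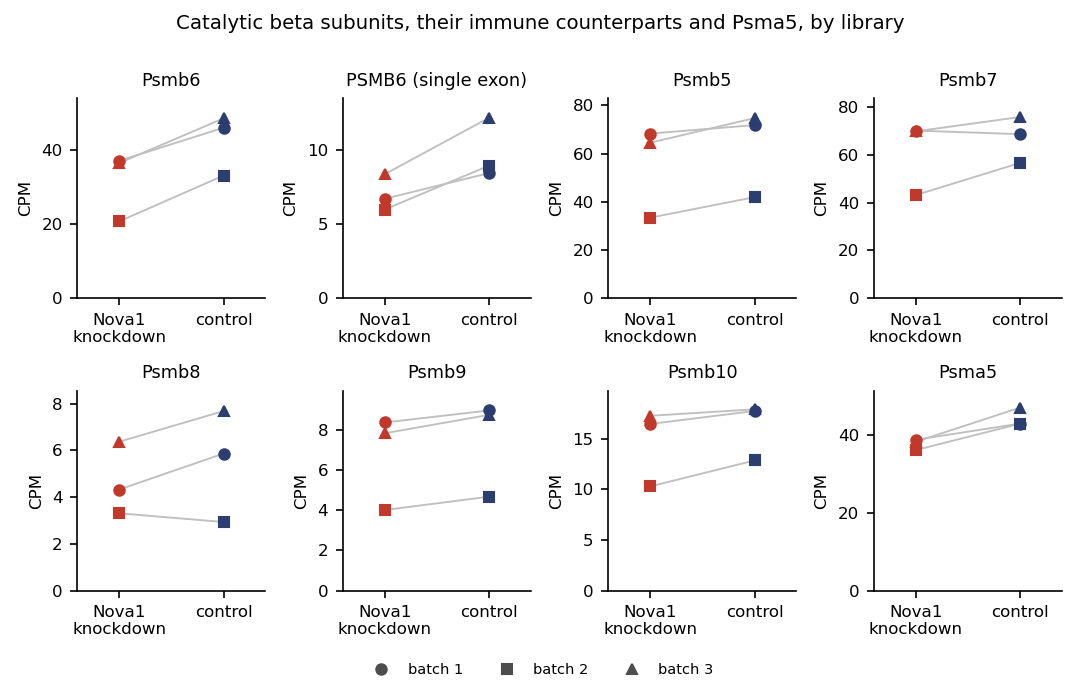
CPM (y axis, from 0) of the catalytic beta subunits, their inducible counterparts and Psma5 in each library, with lines joining the 2 libraries of a batch. Psmb6 and PSMB6 are lower in the Nova1 knockdown in every batch, by 0.31 to 0.66 on the log2 scale, and Psmb8 is higher in the knockdown in batch 2 alone.

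The inducible catalytic subunits, which interferon brings into newly made cores to change the peptides shown to T cells, had lower levels per length than the subunits they replace. Psmb8 had 4.32, 3.31 and 6.37 CPM in knockdown and 5.86, 2.93 and 7.68 CPM in control libraries (log2 fold change -0.25, SE 0.12, limma adjusted p = 0.28). Psmb9, which replaces Psmb6, had 8.35, 4.0 and 7.82 CPM in knockdown and 8.95, 4.67 and 8.73 CPM in control libraries (log2 fold change -0.15, SE 0.07, limma adjusted p = 0.269). Psmb10, which replaces Psmb7, had 16.5, 10.3 and 17.3 CPM in knockdown and 17.8, 12.9 and 17.9 CPM in control libraries (log2 fold change -0.14, SE 0.07, limma adjusted p = 0.29). All 3 overlapped between the groups.

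Set against the subunit each replaces, per length, Psmb8 stood at 6.82% ± 1.61 of Psmb5 in knockdown and 6.64% ± 1.31 in control libraries. Psmb10 stood at 23.0% ± 0.624 of Psmb7 in knockdown and 23.1% ± 1.55 in control libraries. Psmb9 stood at 18.0%, 15.6% and 16.9% of Psmb6 in knockdown libraries, against 15.4%, 11.5% and 14.4% in control libraries. This last ratio did not overlap between the groups, and it shares Psmb6 with the comparison above.

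The promoters of these genes are shown because interferon acts on the inducible subunits through motifs near their start. Of 50 member names, 44 matched a RefSeq promoter window on GRCr8, which runs from 250 bases before to 50 bases after the annotated start. The core of an interferon response element, spelled GAAA, any 2 bases and GAAA, occurred on either strand in 7 of the 44, or 15.9%, against 3.92% of 33469 windows. These 7 were the windows of Psmb8, Psmb10 and Psme2, which interferon induces, and of Psma4, Psmb3, Psmd7 and Psmg4. The windows of Psmb9 and Psme1, which interferon also induces, had no match. The letters TGACNNNGC, the core of an antioxidant response element, through which Nfe2l1 raises proteasome genes when the enzyme is inhibited, occurred in 8 of 44, or 18.2%, against 12.1%. A CCAAT box occurred in 22 of 44, or 50%, against 37.5%. The member windows had a median GC content of 56.5%, against 51.7%. A match in letters does not show that a factor binds there. The windows follow 5′ to 3′ in the direction of transcription, with matches in capitals, for Psmb6 (chr10:55737638-55737937, plus strand, TGACNNNGC), Psmb8 (chr20:4656982-4657281, minus strand, CCAAT and the interferon core, both on the opposite strand), Psmb10 (chr19:50743243-50743542, minus strand, interferon core) and Psme2 (chr15:33052702-33053001, minus strand, interferon core), all on GRCr8.
Psmb6: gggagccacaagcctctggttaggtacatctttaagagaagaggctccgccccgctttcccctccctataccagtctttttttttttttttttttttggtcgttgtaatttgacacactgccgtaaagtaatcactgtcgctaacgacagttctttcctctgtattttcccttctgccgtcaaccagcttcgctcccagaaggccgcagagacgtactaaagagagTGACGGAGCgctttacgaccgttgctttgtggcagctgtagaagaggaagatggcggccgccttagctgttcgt
Psmb8: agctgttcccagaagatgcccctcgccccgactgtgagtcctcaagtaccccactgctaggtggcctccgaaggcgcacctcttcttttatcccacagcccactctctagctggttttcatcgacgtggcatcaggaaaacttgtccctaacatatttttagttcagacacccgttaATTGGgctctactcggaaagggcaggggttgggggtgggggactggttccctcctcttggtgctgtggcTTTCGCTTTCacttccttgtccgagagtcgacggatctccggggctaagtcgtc
Psmb10: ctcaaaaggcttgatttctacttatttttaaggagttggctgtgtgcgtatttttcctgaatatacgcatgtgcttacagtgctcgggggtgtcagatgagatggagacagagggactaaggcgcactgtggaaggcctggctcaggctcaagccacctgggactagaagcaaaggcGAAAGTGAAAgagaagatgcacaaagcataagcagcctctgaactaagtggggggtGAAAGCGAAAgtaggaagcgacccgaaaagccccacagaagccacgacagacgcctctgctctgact
Psme2: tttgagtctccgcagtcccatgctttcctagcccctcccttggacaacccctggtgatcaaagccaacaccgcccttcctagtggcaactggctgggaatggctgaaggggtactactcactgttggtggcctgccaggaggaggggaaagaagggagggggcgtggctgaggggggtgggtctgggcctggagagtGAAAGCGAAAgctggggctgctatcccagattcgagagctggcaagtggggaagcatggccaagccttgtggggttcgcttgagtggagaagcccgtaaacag

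Genes of the 19S cap had a median log2 fold change of -0.06 over 17 genes, against -0.13 over the 14 core genes, and this difference was not tested. Cap genes were longer, with a median of 1552 nt against 975 nt for core genes. With the length trend removed, the medians were -0.04 for the cap and -0.07 for the core. Of 6 ATPase genes, whose ring unfolds substrates, 5 had a log2 fold change below 0, with a median of -0.05 and a lowest value of -0.11 for Psmc2 (SE 0.06, limma adjusted p = 0.315). Psmc6 was the highest of all members, with 55.1, 52.9 and 59.8 CPM in knockdown and 52.2, 48.2 and 57.3 CPM in control libraries. Its level was higher in the knockdown in each batch, the groups overlapped, and the log2 fold change was 0.09 (SE 0.05, limma adjusted p = 0.308). Of 11 non-ATPase genes, 10 were below 0, with a median of -0.06 and a range from -0.14 to 0.01. The lowest was Psmd13 at -0.14 (SE 0.05, limma adjusted p = 0.197). Psmd14, the deubiquitinase of the lid, stood at -0.09 (SE 0.05), and the ubiquitin receptor Psmd4 at -0.08 (SE 0.09), with its difference in batch 2.

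Chaperones that assemble the cap and the core belong to the family by name and leave the finished particle. Psmd10 had 2.20, 1.73 and 2.18 CPM in knockdown libraries, against 2.51, 2.39 and 2.67 CPM in control libraries, with no overlap between the groups. Its log2 fold change was -0.30 (SE 0.11, limma adjusted p = 0.196), from 188 to 310 estimated reads per knockdown library and 312 to 692 per control library. Psmd5 and Psmd9 stood at -0.06 (SE 0.05) and -0.03 (SE 0.06). The 4 core chaperone genes Psmg1, Psmg2, Psmg3 and Psmg4 stood between -0.12 and -0.08, each with a limma adjusted p of at least 0.345.

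Activators open the core without a cap. Psme1 and PSME2 encode the subunits of PA28, which interferon induces. Psme1 had 61.8, 45.3 and 63.5 CPM in knockdown and 63.6, 54.8 and 70.3 CPM in control libraries (log2 fold change -0.15, SE 0.06, limma adjusted p = 0.216). PSME2 had 25.5, 21.5 and 27.4 CPM in knockdown and 28.6, 26.2 and 31.6 CPM in control libraries (log2 fold change -0.22, SE 0.05, limma adjusted p = 0.106). In both the knockdown was lower in every batch and the groups overlapped. Psme3, the nuclear activator PA28 gamma, had 62.6, 54.2 and 62 CPM in knockdown and 67.0, 52.7 and 67.2 CPM in control libraries (log2 fold change -0.06, SE 0.05, limma adjusted p = 0.524).

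Psme4, which encodes the large activator PA200, behaved unlike the rest in batch 2. It had 111, 174 and 107 CPM in knockdown and 115, 159 and 104 CPM in control libraries, so that both batch 2 libraries were above the other 4. It was the sole member above in this way, where 30.5% of all genes were, and 33 members were below, where 27.9% of all genes were. Psme4 was also the longest member tested, at 4954 nt against a median of 1289 nt. Length went along with the departure of batch 2, as described below. Its log2 fold change was 0.04 (SE 0.05, limma adjusted p = 0.703). The ratio of Psme4 to the mean of Psme1 and PSME2 in RPKM was 0.549, 1.28 and 0.506 in knockdown and 0.516, 0.944 and 0.486 in control libraries. Psmf1, which encodes the inhibitor PI31, had 35.4, 28.3 and 30.8 CPM in knockdown and 36.1, 31.3 and 33.1 CPM in control libraries (log2 fold change -0.09, SE 0.05, limma adjusted p = 0.35).

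Use of transcripts within a gene was tested in 77 transcripts of 26 members. The gene Psmd1, whose product is a large scaffold of the cap, passed the test with 2 transcripts (limma diffSplice, Benjamini-Hochberg adjusted over 31429 transcripts), where 0.302% of all transcripts did. By gene, Psmd1 was the 1 member of 26 that passed (Simes adjusted p = 0.0072), where 0.702% of genes did. At an unadjusted p below 0.05 stood 17 of the 77 member transcripts, where 9.01% of all transcripts did. Relative use is measured within a gene, so 1 shift can count in several transcripts, here and over all transcripts. The 2 transcripts of Psmc1, of Psmd7 and of Psmd14 had equal p-values in this way. Shares of 5 member transcripts, in Psmd1, Psmd14 and Psmb6, did not overlap between the groups, where 9.37% of all transcripts did not.

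Psmd1 lies on the plus strand at chr9:92810204-92884869 of Rnor_5.0. Its 5 transcripts start from 2 alternative first exons, which end 201 nt apart. Reference transcript TCONS_00070461 starts with an exon of 44 nt (chr9:92810407-92810450), and 3 further transcripts end their first exon at the same base. New transcript TCONS_00070462 starts with an exon of 104 nt (chr9:92810548-92810651) and shares 23 introns with the reference transcript, each having 1 intron of its own. The modelled 3′ ends also differ, at chr9:92884819 for the reference transcript and chr9:92884869 for the new one. The share of TCONS_00070461 in the RPKM of the gene was 50.2%, 43.0% and 44.5% in knockdown libraries, against 19.97%, 6.06% and 23.0% in control libraries. For TCONS_00070462 the share was 11.7%, 19.8% and 14.0% in knockdown libraries, against 38.9%, 56.7% and 35.6% in control libraries. Neither share overlapped between the groups. Relative to the gene, the first rose by 1.95 on the log2 scale and the second fell by 2.11 (limma diffSplice adjusted p = 0.0105 for each).

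Because assembled transcripts with the same first exon end share most sequence, their estimates were also summed. The 4 transcripts that use the upstream exon end held 88.3%, 80.2% and 86.0% of the gene in knockdown libraries, against 61.1%, 43.3% and 64.4% in control libraries. Most of this rise was in TCONS_00070461. TCONS_00070458 averaged 20.1% in knockdown and 16.6% in control libraries, TCONS_00070459 10.6% and 14.1%, and TCONS_00070460 8.24% and 9.17%. The shares of these others overlapped between the groups. In RPKM they came to 39.9 ± 2.22 in knockdown and 25.3 ± 4.13 in control libraries, while TCONS_00070462 came to 7.21 ± 2.39 and 19.97 ± 6.22 in knockdown and control libraries (SD, n = 3 each). The gene as a whole had 151, 140 and 141 CPM in knockdown and 147, 139 and 142 CPM in control libraries, and its groups overlapped (log2 fold change 0.01, SE 0.04, limma adjusted p = 0.885). Leaving out batch 1, 2 or 3 kept both directions, but neither transcript passed then, with limma diffSplice adjusted p of 0.207, 0.0506 and 0.118 for TCONS_00070461 and 0.203, 0.0506 and 0.133 for TCONS_00070462. With 2 batches, at most 2 transcripts of all 31429 passed.

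**Figure D4:**
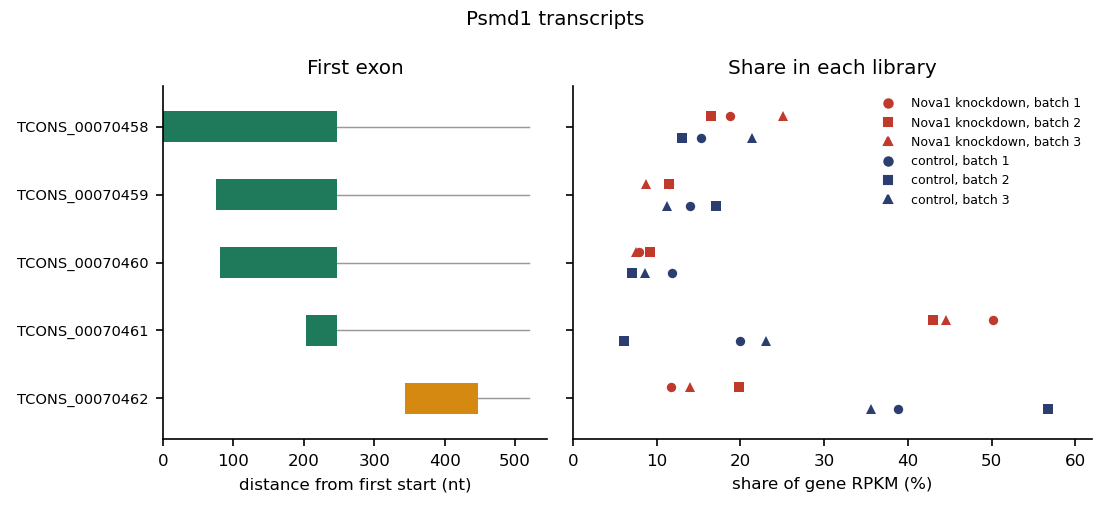
Psmd1 transcripts. The left panel draws the first exon of each to scale (x axis, distance in nt from the first start), green for exons that end at the shared base and orange for the alternative exon, with a grey line for the start of the intron. The right panel gives each transcript's share of the gene's RPKM by library. TCONS_00070461 averages 45.9% in Nova1 knockdown and 16.4% in control libraries, and TCONS_00070462 averages 15.2% and 43.7% in knockdown and control libraries.

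The RefSeq window around the start of Psmd1 is shown as the annotated promoter of the gene whose first exon use differed. It lies at chr9:94157721-94158020 on the plus strand of GRCr8, a later build than that of the files, so positions of the exons above were not placed on it. Capitals mark both matches to TGACNNNGC, 165 bases before and 22 bases after the annotated start.
Psmd1: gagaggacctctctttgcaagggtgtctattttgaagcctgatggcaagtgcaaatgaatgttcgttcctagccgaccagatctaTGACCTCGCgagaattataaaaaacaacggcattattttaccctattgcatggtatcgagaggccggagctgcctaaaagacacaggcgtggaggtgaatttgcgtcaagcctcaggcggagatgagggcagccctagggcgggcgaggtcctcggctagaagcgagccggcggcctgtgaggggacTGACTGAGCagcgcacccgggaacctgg

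Other members showed shifts that did not pass. Psmd14 has transcripts that differ at the last exon, new transcript TCONS_00042896 with chr3:54344452-54344493 and the reference with chr3:54344494-54344885. The new form held 23.8%, 25.2% and 21.6% in knockdown libraries, against 31.2%, 32.5% and 36.1% in control libraries, with no overlap (limma diffSplice adjusted p = 0.237). In Psmg4, a core chaperone, the reference transcript TCONS_00030149 held 83.3%, 93.1% and 77.5% in knockdown libraries, against 54.4%, 88.2% and 53.3% in control libraries (limma diffSplice adjusted p = 0.284). In PSME2 the largest shift was in TCONS_00025544, with 47.7%, 43.9% and 51.2% in knockdown libraries, against 0%, 47.0% and 38.5% in control libraries (limma diffSplice adjusted p = 0.963). A value listed at 0 in a gene with 8 overlapping transcripts can be a failed estimate.

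None of the 5 Psmb6 transcripts passed (limma diffSplice adjusted p of at least 0.411). Its reference transcript held 81.6%, 63.6% and 80.7% in knockdown libraries, against 85.4%, 55.4% and 80.7% in control libraries. Both batch 2 libraries were lowest. Of 27 members with 2 or more transcripts, the one with the highest mean share in control libraries was new to the authors' assembly in 8. These were PSME2, Psmd1, Psme4, Psmd11, Psma7, Psmd5, Psmg1 and Psmg3. In Psmc5 the new form TCONS_00011507 averaged 58.2% ± 30.4 in knockdown and 43.0% ± 19.5 in control libraries. The other 25 members had a single transcript.

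Length of the transcript went along with the fold change in these libraries. The members are short, with a median of 1289 nt against 2277 nt for all genes tested. Across the 49 members, Spearman's rho between length and log2 fold change was 0.58, and within batches 1, 2 and 3 it was 0.30, 0.65 and 0.41. Across all 15983 genes it was 0.33. Length also went along with the departure of batch 2 from the other batches, with a rho of 0.55 over members and 0.44 over all genes. These correlations are across genes, which share the same 6 libraries, and are given as descriptions. With the length trend removed, 40 of 49 members were below 0, against 52.2% of all genes, and the members' median was -0.05 against -0.01 for all genes. The part of length in the members' fold changes was not tested beyond this correction.

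**Figure D5:**
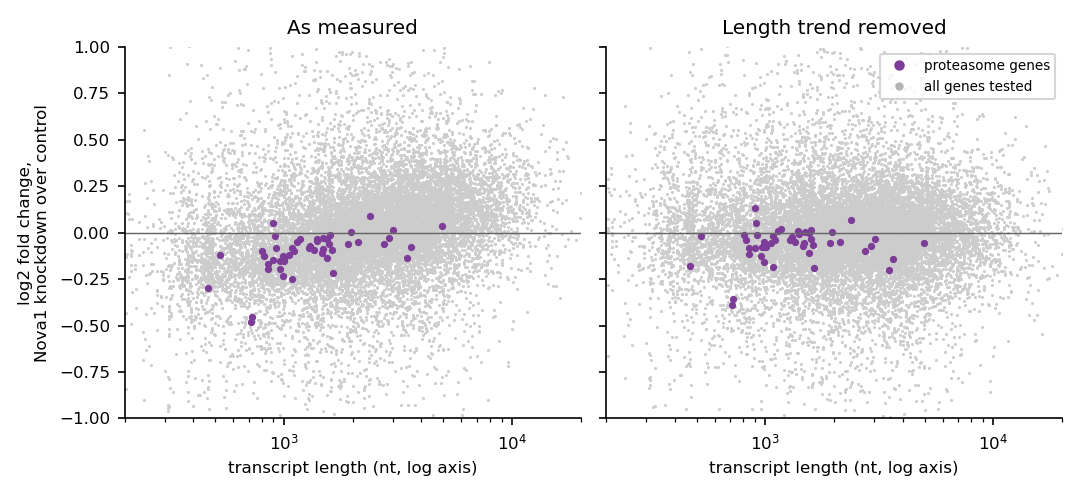
Log2 fold change, Nova1 knockdown over control (y axis), against transcript length (x axis, log scale) for all genes tested (grey) and proteasome genes (purple), as measured on the left and with the length trend removed on the right. Most proteasome genes lie to the left of 2277 nt and below 0, and the lowest, PSMB6 and Psmb6, stay lowest among members after the correction. Genes outside the axes, 277 on the left and 270 on the right, are not drawn.

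The partners of the proteasome were described by lists of genes chosen for their function, with earlier results of these data known. Their counts are descriptions, beside the 1.71% of all genes that passed and the 23.9% with an unadjusted p below 0.05. Of 22 loci for assembly, shuttling and associated proteins, 0 passed the gene-level test, 4 had an unadjusted p below 0.05, and the median was -0.02. Pomp, the maturation protein of the core, stood at -0.20 (SE 0.10, limma adjusted p = 0.309) at 1 locus and -0.20 (SE 0.11, limma adjusted p = 0.312) at another, and these loci had nearly equal levels and may share reads. Of 14 genes that control proteasome transcription, 0 passed, 2 had an unadjusted p below 0.05, and the median was 0.03. Of 13 ubiquitin and ubiquitin-like loci, 0 passed, 2 had an unadjusted p below 0.05, and the median was -0.08, with Isg15 lowest at -0.30 (SE 0.10, limma adjusted p = 0.165).

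Nfe2l1 encodes the transcription factor that restores proteasome gene expression when proteasome activity is short. Its gene level was 281 ± 28.2 CPM in knockdown and 261 ± 48.8 CPM in control libraries (SD, n = 3 each, log2 fold change 0.12, SE 0.07, limma adjusted p = 0.323). Its transcript TCONS_00013729 held 5.19%, 5.15% and 4.97% of the gene in knockdown libraries, against 49.9%, 83.4% and 77.5% in control libraries, and fell relative to the gene (limma diffSplice adjusted p = 0.00356). TCONS_00013731 held 44.0%, 47.6% and 44.5% in knockdown libraries, against 27.5%, 1.15% and 1.44% in control libraries, and did not pass (limma diffSplice adjusted p = 0.242).

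In endoplasmic reticulum-associated degradation, which hands proteins to the proteasome, 3 of 26 genes passed, all lower in the knockdown, where 1.2% of all genes passed as lower. At an unadjusted p below 0.05 stood 7 of the 26, where 23.9% of all genes did, and the list's median was -0.02. Edem1, which marks misfolded glycoproteins, had 113, 174 and 136 CPM in knockdown and 168, 219 and 198 CPM in control libraries (log2 fold change -0.49, SE 0.06, limma adjusted p = 0.0463). The channel proteins Derl3 and Derl1 fell by 0.45 (SE 0.06) and 0.44 (SE 0.06) on the log2 scale, with the same limma adjusted p of 0.0463. For each of the 3 genes the groups overlapped, and within every batch the knockdown was lower. Without batch 1, 2 or 3, calls over all genes numbered 4, 0 and 89.

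Of 20 antigen presentation and interferon genes tested, 0 passed, 4 had an unadjusted p below 0.05, and the median was -0.07, where 1.71% of all genes passed and 23.9% had such a p. B2m, the light chain of class I molecules, had 938, 582 and 1129 CPM in knockdown and 1145, 814 and 1411 CPM in control libraries (log2 fold change -0.37, SE 0.06, limma adjusted p = 0.0528), while RT1-A1, a class I heavy chain, stood at 0.37 (SE 0.10, limma adjusted p = 0.113). Both called transcripts of this list belong to B2m (limma diffSplice adjusted p = 0.0245 for each), and the reference one held 83.1%, 99.15% and 99.984% in knockdown and 97.9%, 99.981% and 99.997% in control libraries, so that batch 1 stood apart. Of 22 autophagy and lysosome genes 1 passed, the lysosomal membrane gene Lamp1, which fell by 0.41 (SE 0.04, limma adjusted p = 0.0387), 7 had an unadjusted p below 0.05, and the median was -0.03. Of 21 cytosolic chaperone loci, 0 passed, 3 had an unadjusted p below 0.05, and the median was 0.01.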

How the data were processed

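RNA was sequenced from 3 Nova1 knockdown and 3 control libraries, whose titles give the batch. The submitters' processing notes name TopHat and the rat build Rnor_5.0. The deposited files hold an assembly with gene names and, for every transcript in a library, estimated reads, length and RPKM, all as text attributes made by the authors. How reads were divided among transcripts, and whether strand was used, was not given in the sources used here, so antisense or overlapping genes could share reads.

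Estimated reads were summed by gene model. Kept genes had, in at least 3 libraries, a rate worth 10 reads at median depth, and 15 reads in total. Libraries were scaled on these genes by trimmed mean of M values (trimming 30% of M, 5% of A). Voom and limma 3.58.1 in R 4.3.3 took batch as a block, leaving 2 residual degrees of freedom. Benjamini-Hochberg adjustment ran over all genes, and calls needed an adjusted p under 0.05. Transcript use was tested with limma diffSplice and the same block, and shares are percentages of the gene's summed RPKM. The tests recovered known changes in simulated data. Those changes were larger than any gene-level change of a member, and the simulated transcript test used genes with fewer transcripts than several members have. Recovery of changes as small as those of the members was not tested. The batch pairs the libraries by its label, and libraries of a batch deviated together from their group means (correlations of 0.58, 0.87 and 0.78).

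Every member is accounted for. Given in full are the catalytic subunits, activators and inhibitor, the 3 members with the highest and lowest fold change and level, called members, and the 3 largest shifts in the share of a transcript that holds at least 10% of a gene of at least 5 RPKM. Other members and pathway genes were named after their values were seen. Members and lists were chosen with earlier results of these data known. Alternatives were no block, each batch left out, other scalings and filters, log2(RPKM + 1) and log2(RPKM + 0.1), a length correction (loess, span 0.5), loci of a name summed, insulin genes left out, and a minimum transcript share of 10%. Promoter windows are RefSeq's on GRCr8.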

Additional observations from a re-analysis of the deposited data

How the results depend on the processing

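The number of proteasome members called at gene level was 0 as reported, 0 when any batch was left out, and 0 under every other alternative except the length correction, which called 2, Psmb6 and PSMB6. At an unadjusted p below 0.05 it ranged from 0 without the replicate block to 10 without batch 1. The median log2 fold change of members stayed below 0 under all alternatives, from -0.13 without batch 1 to -0.04 with library totals alone. Members below 0 numbered 37 of 49 without batch 2, 34 with library totals alone and 35 with each RPKM scale. Calls over all genes moved more. They numbered 274 as reported, 0 without the replicate block (521 at an unadjusted p below 0.05), 0 to 89 with a batch left out, 91 with library totals alone, 174 without a filter, 119 with a stricter filter, 0 with log2(RPKM + 1), 0 with log2(RPKM + 0.1) and 621 with the length correction. The cause was not tested, beyond the fewer libraries or genes that some settings hold. Member transcripts called for relative use numbered 2 as reported, 2 without the replicate block, and 0 to 0 with a batch left out, with 15 to 16 at an unadjusted p below 0.05.

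Of the gene values named, those near 0 changed sign in places, none of them called. Psma1 stood at 0.020 with library totals alone, 0.013 with each RPKM scale and 0.021 with the length correction. With a batch left out, Psma3l ranged from -0.00082 to 0.096, Psmc3ip from -0.19 to 0.11 and Psme4 from -0.011 to 0.084. Psmc3ip stood at 0.034 with library totals alone and 0.054 with the length correction, under which Psme4 stood at -0.055 and Psmd1 at -0.036. Nova1 remained lower in the knockdown throughout but did not pass without the block (limma adjusted p = 1.00), without batch 1 (0.138), without batch 2 (0.145) or on the RPKM scales (0.334 and 0.326). Of 285 such values in all, 260 kept their direction and side of the threshold. The fit leaves 2 residual degrees of freedom, and whether it can detect differences as small as those of most members was not tested.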
